A study of Mus musculus with 14 samples.

Results

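The genes described here are 10 regulators of cell death, taken by gene symbol from 41053 gene rows of an RNA-seq series on loss of Tet2 in mouse B cells, and all 10 were present in both deposited tables. They are the anti-apoptotic genes Bcl2, Bcl2l1 (BCL-XL) and Mcl1, the effectors Bax and Bak1, the BH3-only genes Bcl2l11 (BIM), Pmaip1 (NOXA), Bbc3 (PUMA) and Bid, and the death receptor gene Fas. TET2 oxidises methylated cytosine in DNA. The 14 libraries came from spleen B cells of C57BL/6 mice and fell into 4 groups. Lymphoma B cells gave 2 libraries labelled shTet2, a knock-down with a short hairpin RNA, and 5 control lymphoma libraries labelled Tet2 wild type. Germinal center (GC) B cells, which divide and mutate their antibody genes during an immune response, gave 4 Tet2 knock-out (KO) libraries and 3 wild-type (WT) libraries. Age, any immunization, the part of Tet2 deleted in KO mice, the driver of the lymphoma and whether it carries a Bcl2 transgene are not stated in the labels. Nothing in the labels says that replicates came from separate animals, and both shTet2 titles share a number whose meaning is not given. The p-values therefore measure the spread between these libraries, which may be technical.

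In the mitochondrial pathway of apoptosis, BAX and BAK1 open the outer mitochondrial membrane, and BCL2, BCL-XL and MCL1 hold them in check. BH3-only proteins carry stress signals: BIM, PUMA and BID can engage the whole anti-apoptotic group, whereas NOXA binds mainly MCL1. FAS starts the extrinsic pathway through FADD and caspase-8, which cleaves BID and so links both routes. GC B cells are known for low BCL2, high surface FAS and dependence on MCL1, and BCL2 overexpression is a common lesion of human follicular lymphoma.

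Promoters are shown for the 4 members with the largest difference between control lymphoma and WT GC B cells, 2 of which (Bax and Bid) lie on the same side of that difference as Fas and 1 (Bcl2) on the other. Each window holds 300 bases, 250 before and 50 after the RefSeq gene start, on GRCm38.p6, read 5′ to 3′ on the gene's strand. Capitals mark the GC box (GGGCGG, or CCGCCC on the other strand) and the palindromic E-box (CACGTG).
Fas, chr19:34290409-34290708, plus strand: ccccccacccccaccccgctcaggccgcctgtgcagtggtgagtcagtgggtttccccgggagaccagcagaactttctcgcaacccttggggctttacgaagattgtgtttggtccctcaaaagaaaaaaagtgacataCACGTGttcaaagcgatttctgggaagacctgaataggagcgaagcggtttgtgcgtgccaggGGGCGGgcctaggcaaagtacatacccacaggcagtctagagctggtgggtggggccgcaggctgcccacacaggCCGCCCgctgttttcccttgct
Bcl2, chr1:106714241-106714540, minus strand: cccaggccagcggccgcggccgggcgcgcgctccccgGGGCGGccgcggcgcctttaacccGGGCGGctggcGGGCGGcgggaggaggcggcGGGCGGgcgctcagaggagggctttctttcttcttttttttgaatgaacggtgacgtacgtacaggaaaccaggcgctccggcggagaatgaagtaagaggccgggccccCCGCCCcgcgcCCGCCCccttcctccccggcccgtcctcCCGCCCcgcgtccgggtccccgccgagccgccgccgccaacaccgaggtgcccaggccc
Bax, chr7:45466849-45467148, minus strand: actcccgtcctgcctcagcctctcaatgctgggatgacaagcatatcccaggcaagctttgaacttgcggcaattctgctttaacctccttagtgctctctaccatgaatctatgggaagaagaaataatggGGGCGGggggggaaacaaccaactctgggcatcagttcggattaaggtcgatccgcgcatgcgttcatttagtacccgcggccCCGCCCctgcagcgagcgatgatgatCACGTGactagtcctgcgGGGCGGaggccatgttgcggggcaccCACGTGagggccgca
Bid, chr6:120916775-120917074, minus strand: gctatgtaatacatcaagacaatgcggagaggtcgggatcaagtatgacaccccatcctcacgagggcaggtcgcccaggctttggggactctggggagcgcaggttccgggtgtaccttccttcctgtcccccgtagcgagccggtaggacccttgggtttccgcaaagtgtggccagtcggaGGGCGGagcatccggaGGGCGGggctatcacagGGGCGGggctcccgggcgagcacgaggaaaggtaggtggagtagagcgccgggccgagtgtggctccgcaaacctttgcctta
The Bcl2 window held 44 CG dinucleotides, more than 97.8% of the 32851 mouse windows, whose median was 7. Fas held 14, Bax 19 and Bid 22. Of the genes not shown, Mcl1 held 33, Bcl2l11 27 and 38 and Bbc3 34, 30 and 39, by window. Bak1 held 11, and the Bcl2l1 windows 1, 14 and 22. A high number was thus not particular to Bcl2. Letters of a GC box occurred 7 times in Bcl2, 3 times each in Bax and Bid and 2 times in Fas, and at least once in 35.7% of all windows. The Bbc3 windows, not shown, held 5, 4 and 7 GC boxes. An E-box occurred 2 times in Bax and 1 time in Fas, and in 7.15% of all windows. These letters describe the sequence, and binding or methylation was not measured here. Windows were read for 9 of the 10 genes, Pmaip1 being left out. Neither a CCAAT box (CCAAT or its reverse complement, 37.4% of windows) nor a TATA box (TATAAA or its reverse complement, 13.6%) was found in the 4 shown.

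Total counts were 9386084 to 14741588 per library in shTet2, 6691167 to 18598386 in control lymphoma, 29487244 to 30330950 in KO GC B cells and 27191862 to 30434184 in WT GC B cells. Rows of ribosomal and other structural RNA took 45.0% to 54.1% of counts in shTet2 and 57.5% to 80.7% in control lymphoma libraries, so the lymphoma values rest on fewer reads. Their share was 0.71% to 1.04% in KO libraries and 0.37% to 1.32% in WT libraries. Levels below are reads scaled to a common library size (CPM), set jointly over 14 libraries with TMM factors. Levels of different genes are compared only per kilobase of exon. Tet2 itself had 86.0 and 79.4 CPM in shTet2 libraries and 89.0 to 105 CPM in control lymphoma libraries (log2 fold change -0.21, adjusted p = 0.295). Both shTet2 libraries lay below all controls, but a lower Tet2 level was not called, so these counts do not show the knock-down. KO libraries held 7.79 to 9.53 CPM, against 7.53 to 8.95 CPM in WT (log2 fold change 0.04, adjusted p = 0.909), and a count over the whole gene does not check the KO label. The B-cell markers Cd79a, Cd79b, Ms4a1 and Pax5 were detected in all 4 groups, with summed levels of 2046 to 2573 CPM in shTet2, 2427 to 2732 CPM in control lymphoma, 3117 to 3579 CPM in KO and 3166 to 3398 CPM in WT. In bulk RNA, fewer cells of a type and less RNA per cell cannot be told apart.

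Between shTet2 and control lymphoma cells, 1 of the 10 genes passed an adjusted p of 0.05, against 2.58% of the 12797 genes tested (1.84% higher). That gene was Fas, 2.45-fold higher in shTet2 cells. Pmaip1 was 1.67-fold lower but missed the threshold. The level ranges did not overlap for 4 of the 10 genes (Fas and Bcl2l1 above, Mcl1 and Pmaip1 below), whereas this held for 21% of all genes tested (12.5% above, 8.52% below).

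Between KO and WT GC B cells, 0 of the 10 genes passed, against 6.49% of the 13600 genes tested. None of the 10 had an unadjusted p under 0.05 in edgeR, and DESeq2 called 0. Level ranges were apart for 1 of the 10 (Bak1), against 20.2% of all genes. The 95% intervals of the KO effects all lay between -0.70 and 0.43 on the log2 scale, their extremes being those of Bcl2 and Bbc3. KO libraries also held fewer transcripts of myeloid markers (8 of 10 tested lower, sums of 21.3 to 24.2 CPM in KO and 38.8 to 52.4 CPM in WT) and more of 4 of 4 Y-linked genes (sums of 114 to 125 CPM in KO and 61.2 to 74.8 CPM in WT). The part of either in the KO values was not tested. A fit with Y-linked expression as covariate called 0 of the 10 genes and 4 of all 13600. That covariate separates KO from WT libraries without overlap, so the fit cannot part it from genotype. The SE of Fas, for one, was 0.372 in it, against 0.087 without the covariate.

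Between control lymphoma and WT GC B cells, 9 of the 10 genes differed, 3 higher and 6 lower in control lymphoma. This share is close to the background, since 80.7% of the 15441 genes tested differed (40.2% higher and 40.4% lower), so the sizes carry more than the count. Bcl2 was 10.2-fold higher in control lymphoma and Fas was 18.5-fold lower. Y-linked expression went with cell source as well: the 4 Y-linked genes summed to 0 CPM in every lymphoma library and to 61.2 to 74.8 CPM in WT. Cell source, library batch and Y-linked expression cannot be told apart in this comparison. Differences also moved with transcript length: the median log2 fold change over all genes was 0.11 under 1500 bases of exon, -0.59 from 1500 to 3000, -0.14 from 3000 to 6000 and 0.66 above 6000. Of the T-cell markers 10 of 11 were higher in control lymphoma, and of the NK-cell markers 6 of 6, although the summed T-cell level was 27.1 to 58.9 CPM in control lymphoma and 109 to 137 CPM in WT. Most of that sum was Lck, the 1 T-cell marker that was lower (20.8 CPM in control lymphoma and 122 CPM in WT on average), and the next highest in WT, Cd5, averaged 1.38 CPM there. The part of length, of Y-linked expression or of these markers in the values of the 10 genes was not tested.

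**Figure D1:**
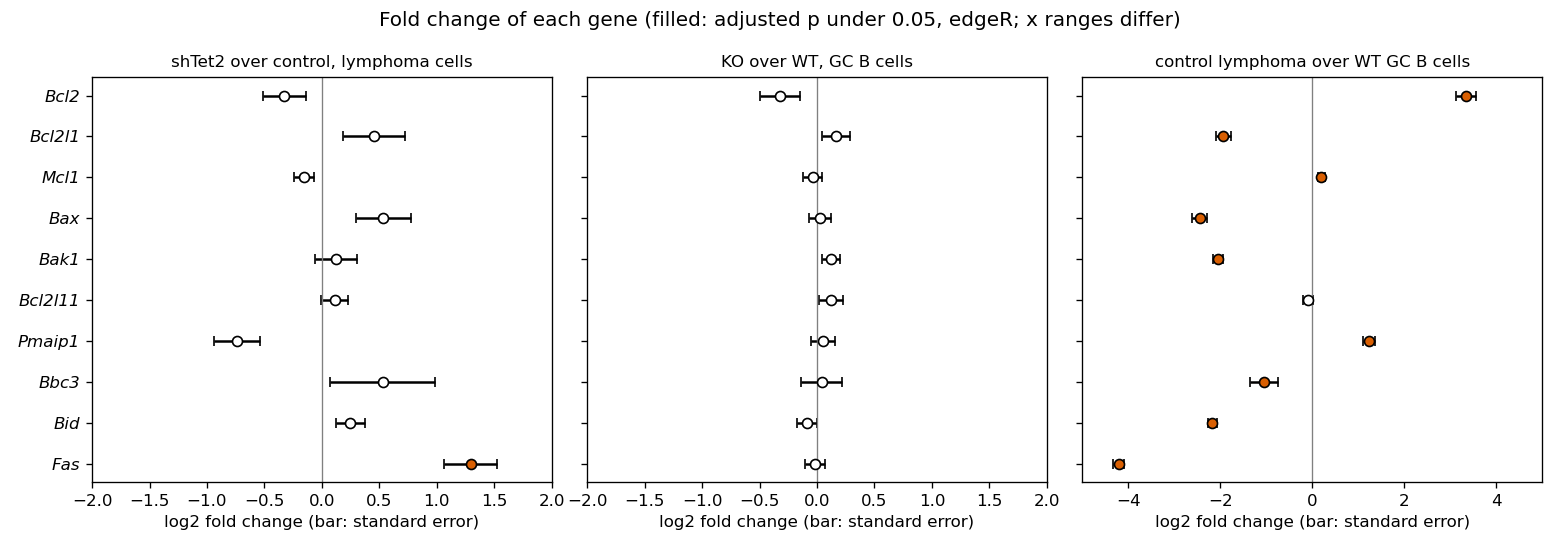
Log2 fold change (x axis) of each gene (y axis) in 3 comparisons, with the standard error as a bar and filled points at an adjusted p under 0.05 in edgeR. Fas alone is filled for shTet2 over control (1.29), no point is filled for KO over WT, and 9 of 10 are filled for control lymphoma over WT, where the x axis is wider.

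Among the anti-apoptotic genes, Bcl2 (chromosome 1, 106538178 to 106714274, 9157 exonic bases, GRCm38 as in the files) separated the cell sources most. It had 85.8 and 141 CPM in shTet2 libraries, and 156, 141, 153, 137 and 114 CPM in control lymphoma libraries 1 to 5. KO libraries held 9.08, 12.6, 10.9 and 12.9 CPM, and WT libraries 14.2, 10.04 and 17.04 CPM. Every lymphoma library lay far above every GC B-cell library, and within each source the ranges overlapped. The log2 fold change was 3.35 (SE 0.21, adjusted p = 1.56e-09) for control lymphoma over WT, where a transgene, if one is present, and the mouse gene cannot be told apart. It was -0.33 (SE 0.19, adjusted p = 0.382) for shTet2 over control and -0.32 (SE 0.17, adjusted p = 0.33) for KO over WT. The shTet2 value rested on library 1, which at 85.8 CPM lay below all control libraries: without shTet2 replicate 2 it was -0.73 (adjusted p = 0.0314), and without replicate 1 it was -0.02 (adjusted p = 0.94). On the other strand, D630008O14Rik overlaps 6.1% of the Bcl2 exon length and had at most 81 counts, in a control library with 1678 Bcl2 counts.

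Mcl1 (chromosome 3, 95658721 to 95663176), which encodes the short-lived survival protein of GC B cells, was the most abundant of the 10 per kilobase in all 4 groups. It had 435 and 451 CPM in shTet2 libraries and 489, 520, 477, 469 and 482 CPM in control lymphoma libraries. It had 446, 418, 427 and 421 CPM in KO libraries and 458, 422 and 392 CPM in WT libraries. Over the 14 libraries its level stayed between 392 and 520 CPM. The shTet2 libraries lay below all control lymphoma libraries, by -0.16 on the log2 scale (SE 0.09, adjusted p = 0.364). The value for KO over WT was -0.04 (SE 0.08), although the jointly scaled mean was slightly higher in KO, because the test scales GC B-cell libraries alone. Control lymphoma was 1.15-fold above WT (log2 0.20, SE 0.08, adjusted p = 0.0248). This call was lost without WT replicate 4 (adjusted p = 0.0801) and without control replicates 1, 2, 3 and 5 (0.0586, 0.0903, 0.053 and 0.0548). It was also lost with the replicate block (adjusted p = 0.05), with no filter on low counts (log2 0.09, adjusted p = 0.475) and with ribosomal rows removed (0.14, adjusted p = 0.107).

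Bcl2l1 (chromosome 2, 152780668 to 152831728), the gene of BCL-XL, went the other way from Bcl2 between the sources. It had 4.90 and 5.14 CPM in shTet2 libraries, from 60 and 49 counts, and 2.73 to 4.49 CPM in control lymphoma libraries, from 9 to 33 counts. KO libraries held 13.95 to 18.8 CPM and WT libraries 13.2 to 14.9 CPM. Control lymphoma was 3.82-fold below WT (log2 -1.94, SE 0.16, adjusted p = 9.49e-10). For shTet2 over control the log2 fold change was 0.46 (95% interval -0.13 to 1.04), and for KO over WT 0.17 (-0.09 to 0.42), neither past the threshold. In the summed per-kilobase level of these 3 genes, Bcl2 made up 8.73% ± 2.55 in shTet2 (SD, n = 2) and 9.81% ± 1.10 in control lymphoma (n = 5), but 0.978% ± 0.176 in KO (n = 4) and 1.20% ± 0.361 in WT (n = 3). Mcl1 held 90.5%, 89.7%, 96.3% and 96.4% of it in shTet2, control lymphoma, KO and WT libraries.

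**Figure D2:**
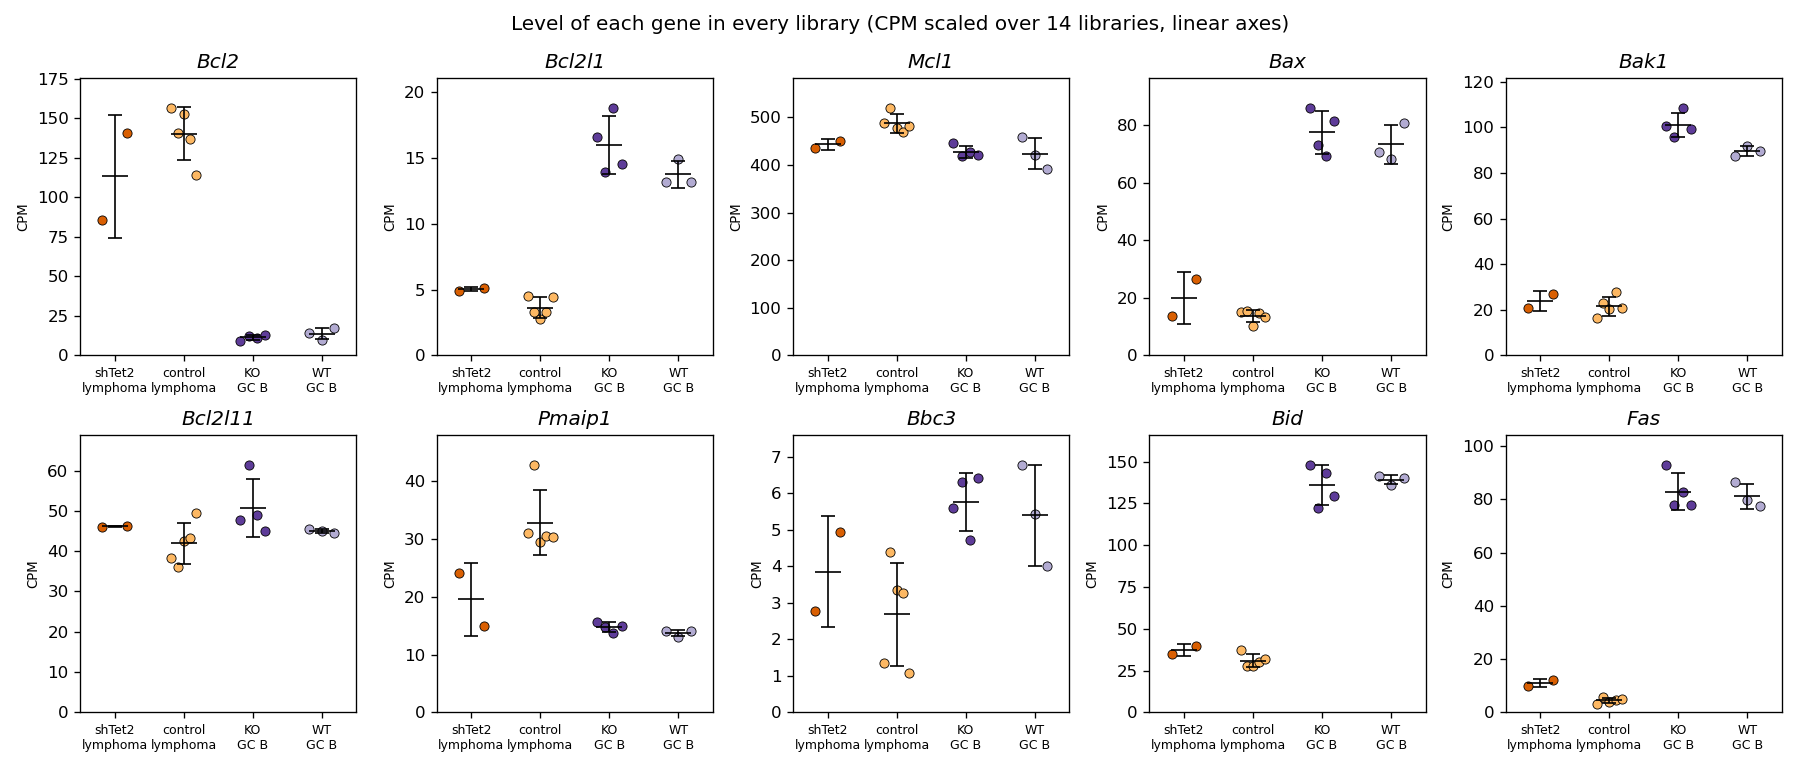
CPM (linear y axes from 0) of each gene in every library, 1 point per library, with the group mean and SD as bars, for shTet2 lymphoma, control lymphoma, KO GC B and WT GC B cells. Bcl2 and Pmaip1 are higher in control lymphoma than in WT, Fas, Bax, Bak1, Bid and Bcl2l1 are lower, and KO points lie beside WT points.

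Both effectors were lower in lymphoma cells. Bax (chromosome 7, 45461695 to 45466898, 869 exonic bases) had 13.7 and 26.5 CPM in shTet2 libraries, and 15.2, 15.3, 10.4, 14.9 and 13.2 CPM in control lymphoma libraries. KO libraries held 86.0, 73.2, 69.5 and 81.5 CPM, and WT libraries 70.7, 68.4 and 81.0 CPM. All lymphoma libraries lay below all GC B-cell libraries, and the shTet2 libraries differed from each other, with 1 inside and 1 above the control range. Control lymphoma was 5.44-fold below WT (log2 -2.44, SE 0.16, adjusted p = 2.32e-10). The log2 fold change for shTet2 over control was 0.53 (SE 0.24, adjusted p = 0.255). Without shTet2 replicate 1 it was 0.94 (adjusted p = 0.00378), and without replicate 2 it was -0.002 (adjusted p = 0.999), so 1 library set the value. For KO over WT it was 0.03 (95% interval -0.18 to 0.23).

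Bak1 (chromosome 17, 27019810 to 27029009) had 20.8 and 27.0 CPM in shTet2 libraries and 16.4 to 27.7 CPM in control lymphoma libraries, which overlap. It had 101, 95.7, 108 and 99.1 CPM in KO libraries and 87.4, 91.9 and 89.6 CPM in WT libraries. Every KO library was above every WT library, but the log2 fold change of 0.12 (SE 0.08) missed the threshold (adjusted p = 0.433). Control lymphoma was 4.14-fold below WT (log2 -2.05, SE 0.12, adjusted p = 2.31e-12). Ggnbp1, on the other strand, overlaps 14.8% of the Bak1 exon length. It had 6 to 27 counts in lymphoma and 154 to 312 counts in GC B-cell libraries, where Bak1 had 3843 to 4755. Bax made up 68.9%, 63.8%, 67.9% and 69.3% of the summed per-kilobase level of both effectors in shTet2, control lymphoma, KO and WT libraries, so their proportion moved far less than their sum.

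The BH3-only genes did not move as 1 group. Pmaip1, whose protein NOXA counters MCL1, had 24.0 and 15.01 CPM in shTet2 libraries, and 31.0, 42.7, 29.5, 30.4 and 30.3 CPM in control lymphoma libraries. KO libraries held 15.7, 14.7, 13.7 and 14.9 CPM, and WT libraries 14.02, 13.1 and 14.1 CPM. Control lymphoma lay above all other groups, both shTet2 libraries lay below it, and KO and WT overlapped. For shTet2 over control the log2 fold change was -0.74 (SE 0.20, adjusted p = 0.0813). It passed in DESeq2 (adjusted p = 0.0193), with no filter (0.00484), in 1 model of all 14 libraries (0.0123) and without shTet2 replicate 1 (-1.13, adjusted p = 0.00139), and not in the other fits. Control lymphoma was 2.35-fold above WT (log2 1.23, SE 0.14, adjusted p = 7.33e-08). The KO value was 0.05 (95% interval -0.17 to 0.27).

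Bid (chromosome 6, 120891930 to 120916853), the target of caspase-8, had 34.7 and 39.7 CPM in shTet2 libraries and 27.5 to 37.1 CPM in control lymphoma libraries. KO libraries held 122 to 148 CPM, and WT libraries 136.01 to 141 CPM. Control lymphoma was 4.51-fold below WT (log2 -2.17, SE 0.10, adjusted p = 8.42e-14). The log2 fold change was 0.25 for shTet2 over control (95% interval -0.03 to 0.53) and -0.09 for KO over WT (-0.27 to 0.09). Bcl2l13, on the other strand, overlaps 17.7% of the Bid exon length and was expressed at 91 to 446 counts in lymphoma libraries and 1853 to 2445 counts in GC B-cell libraries, so part of the Bid counts is uncertain.

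Bcl2l11 (chromosome 2, 128126038 to 128162547) was the only gene of the 10 not called between control lymphoma and WT cells. It had 46.1 and 46.3 CPM in shTet2 libraries, and 38.2, 36.2, 42.6, 43.2 and 49.4 CPM in control lymphoma libraries. KO libraries held 47.7, 61.4, 48.9 and 45.0 CPM, and WT libraries 45.6, 44.9 and 44.6 CPM. KO replicate 3 was the highest of the 14. None of the comparisons passed: the log2 fold change was 0.11 (adjusted p = 0.643) for shTet2 over control, 0.12 (0.57) for KO over WT and -0.09 (0.437) for control lymphoma over WT. The last had a 95% interval of -0.31 to 0.13, and was 0.05 by median-of-ratios scaling and by DESeq2.

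Bbc3 (chromosome 7, 16309616 to 16318205), a known p53 target, was low throughout. It had 2.78 and 4.93 CPM in shTet2 libraries, from 34 and 47 counts, and 1.07 to 4.38 CPM in control lymphoma libraries, from 7 to 37 counts. KO libraries held 4.72 to 6.44 CPM and WT libraries 4.01 to 6.78 CPM. Control lymphoma was 2.08-fold below WT (log2 -1.06, SE 0.31, adjusted p = 0.00394), although the ranges overlapped. At this depth the shTet2 effect was poorly bounded, with a 95% interval of -0.47 to 1.54. The makeup of the 4 BH3-only genes differed between sources: Bid held 41.1% ± 4.90 (SD, n = 2) of their summed per-kilobase level in shTet2 and 31.6% ± 4.48 (n = 5) in control lymphoma, but 72.0% ± 3.14 (n = 4) in KO and 74.4% ± 0.946 (n = 3) in WT. Pmaip1 held 28.8% ± 8.71, 44.6% ± 4.52, 10.5% ± 0.686 and 9.84% ± 0.307 in shTet2, control lymphoma, KO and WT libraries.

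Fas (chromosome 19, 34290659 to 34327770, 1801 exonic bases) was the only gene of the 10 called between shTet2 and control lymphoma cells. It had 10.1 and 12.1 CPM in shTet2 libraries, from 123 and 115 counts, and 3.32, 5.85, 3.73, 4.83 and 4.94 CPM in control lymphoma libraries, from 17, 16, 41, 37 and 37 counts. KO libraries held 92.9, 78.1, 82.9 and 78.0 CPM, and WT libraries 86.5, 79.9 and 77.4 CPM. Both shTet2 libraries lay above every control lymphoma library and far below every GC B-cell library, while KO and WT overlapped. Fas averaged 11.1 ± 1.43 CPM in shTet2 (SD, n = 2) and 4.53 ± 1.01 CPM in control lymphoma cells (n = 5). The log2 fold change was 1.29 (SE 0.23, adjusted p = 0.0148, 95% interval 0.80 to 1.79), and it ranged from 1.16 to 1.42 when each library was left out. The call was lost without shTet2 replicate 2 (adjusted p = 0.0611) and with the replicate block (1.30, adjusted p = 0.333). For KO over WT the value was -0.02 (95% interval -0.21 to 0.16), although the jointly scaled mean was slightly higher in KO.

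Of 6 GC B-cell markers, 1 was called beside Fas in the lymphoma libraries. The markers Bcl6, S1pr2, Mki67, Mybl1, Gcsam and Rgs13 summed to 677 to 948 CPM in shTet2 and 239 to 384 CPM in control lymphoma libraries, with a median log2 fold change of 2.39 against -0.004 over all genes. The marker called was S1pr2, which encodes a receptor that confines GC B cells to follicles (28.6 and 46.8 CPM in shTet2 and 2.19 to 9.21 CPM in control lymphoma, log2 2.73, adjusted p = 0.0297). Mki67, a marker of dividing cells, had 410 and 611 CPM in shTet2 and 66.5 to 182 CPM in control lymphoma libraries (log2 2.09, adjusted p = 0.0642), and so made up most of the shTet2 sum. Mybl1 had 61.1 and 79.7 CPM in shTet2 and 3.29 to 20.6 CPM in control lymphoma (log2 2.69, adjusted p = 0.0549). Gcsam had 4.41 and 24.8 CPM in shTet2 and 0.195 to 4.41 CPM in control lymphoma (log2 3.38, adjusted p = 0.167). Bcl6, the GC master repressor, overlapped at 144 and 205 CPM in shTet2 and 163 to 198 CPM in control lymphoma (log2 -0.016), and so did Rgs13 (0.945 and 8.50 CPM in shTet2 and 0.91 to 5.34 CPM in control lymphoma; 0.85, adjusted p = 0.639). Among control lymphoma libraries, replicate 2 had the highest Fas (5.85 CPM) and the lowest S1pr2 and Mki67. These values rest on 16 Fas counts and 6 S1pr2 counts in the library of smallest effective size, so its rank is uncertain. Of 5 plasma-cell markers, Xbp1 (log2 0.81, adjusted p = 0.008) and Prdm1 (1.21, adjusted p = 0.0327) were higher in shTet2 cells, and Irf4 had a log2 fold change of -0.25 (adjusted p = 0.188). The plasma-cell sums overlapped, at 457 to 760 CPM in shTet2 and 329 to 469 CPM in control lymphoma. T-cell markers summed to 45.1 to 75.3 CPM in shTet2 and 27.1 to 58.9 CPM in control lymphoma, and myeloid markers to 64.1 to 213 CPM in shTet2 and 63.8 to 97.9 CPM in control lymphoma. The part of these markers, and of the lower structural RNA share in shTet2 libraries, in the Fas value was not tested.

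**Figure D3:**
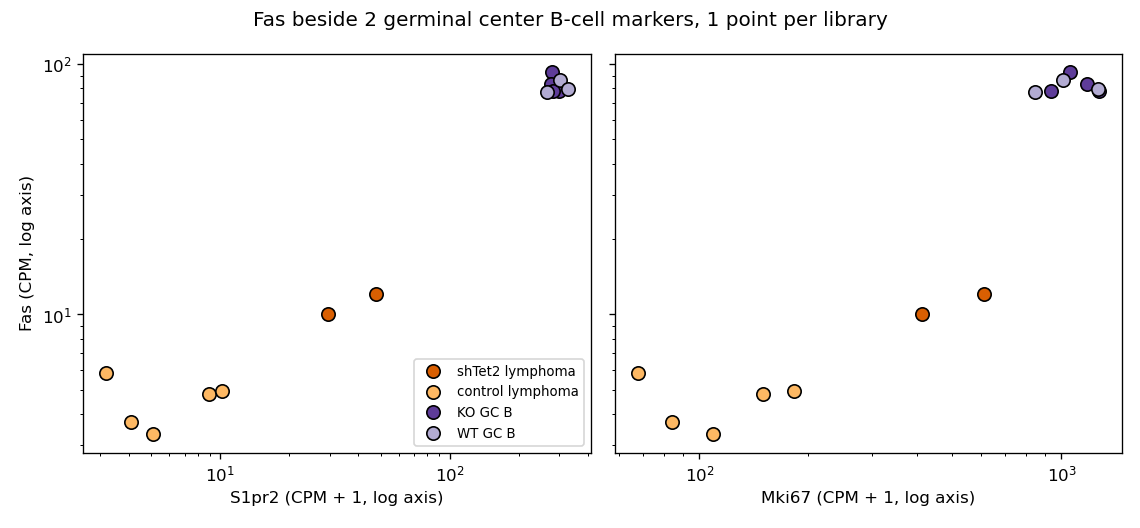
Fas (CPM, log y axis) against S1pr2 and Mki67 (CPM plus 1, log x axes), 1 point per library. Both shTet2 libraries lie between the control lymphoma libraries and the KO and WT GC B-cell libraries for Fas (10.1 and 12.1 CPM) and for both markers, which are 2 of the 6 listed; Bcl6 and Rgs13, not plotted, overlap between shTet2 and control lymphoma.

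Control lymphoma cells held 18.5-fold less Fas than WT GC B cells (log2 -4.21, SE 0.12, adjusted p = 5.36e-16). The same 6 GC markers were all lower in control lymphoma, with a median log2 fold change of -4.73. FAS is a surface protein often used to sort GC B cells, and how these cells were purified is not stated in the labels, so the cell source and such a sort cannot be told apart.

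The KO and shTet2 effects were set against each other in 1 model, where 2 of the 10 genes passed, against 4.99% of the 15441 genes tested. The KO effect on Fas minus the shTet2 effect was -1.30 on the log2 scale (SE 0.19, adjusted p = 0.000504), and it passed in all 14 fits that left out 1 library (-1.43 to -1.13). The model estimates 1 spread per gene over both sources, and its SE for Fas is below that of the shTet2 effect fitted within its table (0.23). For Pmaip1 the difference was 0.82 (SE 0.21, adjusted p = 0.0284). That call was lost without shTet2 replicate 2 (adjusted p = 0.209), KO replicate 5 (0.0528) or WT replicate 3 (0.0732), and with the replicate block (0.97, adjusted p = 0.2). For the other 8 genes the difference did not pass, with 95% intervals as wide as -1.44 to 0.52 for Bbc3 and as narrow as -0.10 to 0.40 for Mcl1.

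Per kilobase of exon, the order of the 10 genes also differed between sources. In WT cells it was Mcl1 (122 CPM per kilobase), Bax (84.4), Fas (45.1), Bid (39.2), Bak1 (37.2), Bcl2l11 (5.61), Pmaip1 (5.18), Bcl2l1 (2.995), Bbc3 (2.69) and Bcl2 (1.501). The SD of Bbc3 (0.690) exceeds the gap to Bcl2l1, so these neighbours do not differ beyond their spread, whereas Fas and Bid, with SDs of 2.61 and 0.776, stay apart. KO cells kept this order except that Bak1 (42.0 ± 2.25, SD, n = 4) stood above Bid (38.2 ± 3.38), with ranges that overlapped. In control lymphoma cells the order was Mcl1 (140), Bax (15.9), Bcl2 (15.3), Pmaip1 (12.4), Bak1 (8.98), Bid (8.69), Bcl2l11 (5.22), Fas (2.52), Bbc3 (1.34) and Bcl2l1 (0.793). There, Bax and Bcl2, with SDs of 2.42 and 1.83, do not differ beyond their spread, nor do Bak1 and Bid. In shTet2 cells Fas (6.14 ± 0.795, n = 2) and Bcl2l11 (5.75 ± 0.0193) did not differ beyond their spread, with Fas below Bcl2l11 in replicate 1 (5.58 and 5.74) and above it in replicate 2 (6.70 and 5.77).

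Ratios within a library do not depend on scaling between libraries, but a shift with transcript length between the sources can remain in them. Bcl2 has 9157 exonic bases and Bax 869. For control lymphoma over WT, the median log2 fold change was 0.66 above 6000 bases and 0.11 under 1500. The part of length in the ratios was not tested. Bcl2 over Bcl2l11, per kilobase, was 2.15 ± 0.735 (SD, n = 2) in shTet2 and 2.98 ± 0.620 (n = 5) in control lymphoma, and 0.198 ± 0.0376 (n = 4) in KO and 0.268 ± 0.0696 (n = 3) in WT. Bcl2 over Bax was 0.593 and 0.505 in the shTet2 libraries and 0.818 to 1.40 in the control lymphoma libraries, which do not overlap, and 0.0100 to 0.0163 in KO and 0.0139 to 0.0200 in WT. Mcl1 over Pmaip1 was 13.8 and 22.8 in shTet2 libraries and 9.23 to 12.3 in control lymphoma libraries, again apart, and 21.4 to 23.7 in KO and 21.1 to 24.8 in WT. Mcl1 over Bcl2l11 stayed between 15.7 and 33.1 in all 14 libraries. Among other ratios computed, Fas over Bcl2 was also apart (0.436 to 0.596 in shTet2 and 0.108 to 0.221 in control lymphoma). Bcl2 over Mcl1, Mcl1 over Bax and Bcl2l11 over Bid overlapped, as did Bcl2 over Bcl2l11, and Mcl1 over Bcl2l11 met at 22.5. Neither Bcl2 nor Bax alone was apart, and 21% of all genes tested were apart between these groups. These ratios describe RNA, not protein, and were not tested.

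**Figure D4:**
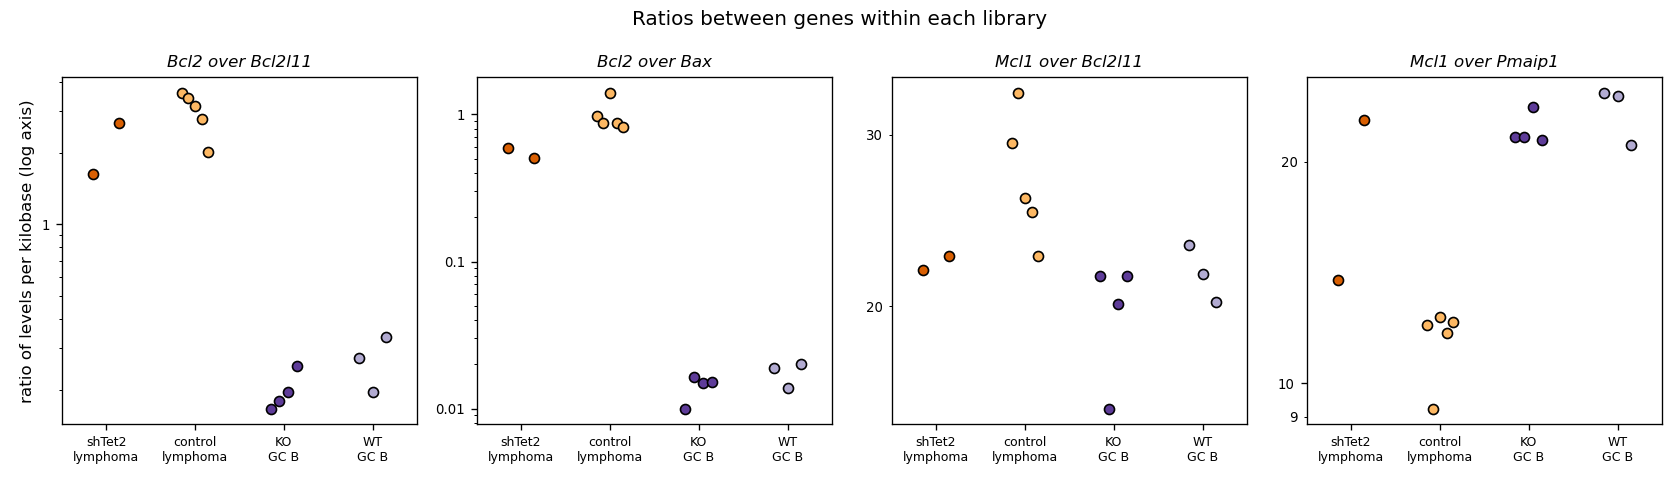
Ratios of per-kilobase levels between 2 genes within each library (log y axes), 1 point per library, for shTet2 lymphoma, control lymphoma, KO GC B and WT GC B cells. Bcl2 over Bcl2l11 is above 1 in every lymphoma library and below 1 in every GC B-cell library. The shTet2 libraries lie apart from control lymphoma for Bcl2 over Bax and Mcl1 over Pmaip1, but not for either ratio over Bcl2l11.

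Other genes of the same pathways were read from 7 lists. Between KO and WT cells, 0 of 7 tested anti-apoptotic genes, 0 of 7 BH3-only genes and 0 of 9 death receptor genes passed. Of 14 p53-related genes, Plk2, a p53 target kinase, was higher in KO (6.47 ± 0.455 CPM in KO, n = 4, and 3.57 ± 0.334 CPM in WT, n = 3; log2 0.81, adjusted p = 0.00333). Of 15 transcription factors known to act on the 10 genes, Trp73, a p53 relative, was lower (4.24 ± 0.869 CPM in KO and 10.97 ± 2.33 CPM in WT; -1.42, adjusted p = 0.000146). Stat5b (0.36, adjusted p = 0.0171) and Stat5a (0.31, adjusted p = 0.0343), which relay cytokine signals, were higher. Stat5b lost its call without KO replicate 5 or WT replicates 1 or 4 (0.0583 to 0.0753), and Stat5a without any 1 of 6 libraries, all but KO replicate 2 (0.0568 to 0.145). With Y-linked expression as covariate, which separates KO from WT libraries without overlap, none of these 4 passed: Trp73 was at -1.30 with an SE of 0.732, against 0.178 without the covariate, Stat5b at 0.29, Plk2 at 0.07 and Stat5a at 0.03. The replicate block ended the calls of Stat5a (log2 0.32, adjusted p = 0.229) and Stat5b (0.41, adjusted p = 0.0568) at similar fold changes. A model of all 14 libraries likewise ended those of Plk2 (0.86, adjusted p = 0.155) and Trp73 (-1.37, adjusted p = 0.173).

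Between shTet2 and control lymphoma cells, 1 of 9 tested death receptor genes (Fas itself) and 1 of 15 transcription factors passed. None passed among 6 anti-apoptotic, 2 effector and 6 BH3-only genes, 10 genes of the apoptosome list and 14 p53-related genes. The transcription factor was Rel, an NF-kappaB subunit, at 85.3 ± 21.2 CPM in shTet2 (n = 2) and 141 ± 12 CPM in control lymphoma (n = 5; log2 -0.75, adjusted p = 0.0175). Its call was lost without shTet2 replicate 2 or control replicates 1 or 3 (0.0502 to 0.0628), with the replicate block (0.264) and in 1 model of all 14 libraries (0.07). List medians ran from -0.12 for death receptor genes to 0.33 for effectors, against -0.004 over all genes. Apaf1 (0.34, adjusted p = 0.0867) and Tnfsf10 (-0.73, adjusted p = 0.0852) were the nearest misses of their lists. Among the transcription factors, E2f1 missed more narrowly (log2 1.22, adjusted p = 0.0762).

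Between control lymphoma and WT cells, most genes of every list differed, as most genes did. In the FAS and death receptor list, 6 of 11 rose and 4 fell. Cflar, which encodes the caspase-8 inhibitor FLIP, rose (108 ± 9.87 CPM in control lymphoma, n = 5, and 31.3 ± 1.51 CPM in WT, n = 3; log2 1.79), as did Tnfsf10, the gene of TRAIL (3.07), and Ripk1 (1.54). The adaptor genes Fadd (-1.01) and Tradd (-1.95) fell, and Casp8 did not pass (-0.16, adjusted p = 0.124). Of 8 tested anti-apoptotic genes 3 rose and 5 fell: Bcl2l2 rose (5.77 ± 1.09 CPM in control lymphoma and 2.63 ± 0.661 CPM in WT; 1.15), whereas Bcl2a1b fell (-1.98), although reads of the near-identical Bcl2a1 copies are uncertain. The BH3-only genes Bad (-2.36) and Bmf (-0.62) fell, and in this list 1 of 7 rose and 4 fell. Among inhibitors of apoptosis, Birc3 (1.37), Birc6 (1.86) and Xiap (0.95) rose, and Htra2, which antagonises them, fell (-2.14). Trp53 fell (60.8 ± 2.47 CPM in control lymphoma and 125 ± 5.21 CPM in WT; -1.04), with 5 of 15 p53-related genes higher and 5 lower. Among transcription factors, Foxo3 (2.69) and Irf4 (1.75) rose and E2f1 (-4.04) and Atf4 (-1.18) fell. All genes written here as having risen or fallen had adjusted p-values under the threshold in edgeR, and list medians are not read further against so broad a difference.

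Genes whose levels varied most like those of 3 members were sought among 7803 genes with at least 5 CPM on average in each table, by the smaller of the Pearson correlations over 7 GC B-cell and over 7 lymphoma libraries. For Fas these were Hdac3 (smaller r 0.924), Fbxo5 (0.898) and Heatr3 (0.876). For Bcl2 they were Abcg1 (0.835), Tlr7 (0.818) and Rabep2 (0.805), and for Bcl2l11 they were Sik3 (0.855), Ticrr (0.826) and Cebpg (0.823). The libraries share group and depth, and among so many genes high values are to be found for any gene, so these names are a description.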

How the data were processed

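RNA was measured in 14 libraries made with a stranded mRNA kit, per the labels' protocols. Per the submitters' processing notes, alignment was with STAR 2.3.0e and the genome was GRCm38.p3. The authors deposited raw counts per gene from featureCounts 1.5.1 over exons of GENCODE M3, per the file headers, in 1 table per cell source. The command line there shows no strand option, so reads of genes overlapping on opposite strands cannot be told apart. Every library was mapped by its title, and 0 per-sample columns were left unused.

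Comparisons used edgeR 4.0.16 (R 4.3.3, limma 3.58.1): TMM scaling, filterByExpr, robust quasi-likelihood tests and Benjamini-Hochberg adjustment over all genes tested, called at an adjusted p under 0.05. KO against WT and shTet2 against control were fitted within their table. The difference between both effects, and control lymphoma against WT, came from 1 model of all libraries. Standard errors were derived from the F statistic, and 95% intervals from these with the fit's degrees of freedom. CPM were scaled over all libraries, so values near 0 can differ in sign between CPM means and tests. All 10 genes passed the filter in every comparison.

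Alternatives were the replicate block, median-of-ratios scaling, DESeq2 1.42.0, no filter, removal of structural RNA rows (24 of 34 listed rows matched; 2 abundant ones, Gm15564 and Mir6236, were listed after seeing the data), 1 model of all libraries, the Y-linked level as a covariate, and leaving out each library. The test scripts were checked on simulated data. No libraries were copies of each other. Promoters come from RefSeq (GRCm38.p6). The 73 pathway and 58 marker genes used all matched; a few other listed genes are not reported here and are left out of list counts and sums. From each pathway list, at most 4 genes past the threshold were named per comparison by smallest p, or at most 2 where none passed, and some were left out; Fadd and Casp8 were chosen after their values were seen. The members and lists were chosen with earlier results of these data known.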

Additional observations from a re-analysis of the deposited data

Results flagged for a closer look

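The KO effect and the shTet2 effect on Fas differed by a test of the difference itself (-1.30 on the log2 scale, KO minus shTet2, adjusted p = 0.000504 in edgeR). Fas was higher in 2 of 2 shTet2 libraries than in all 5 control lymphoma libraries, while KO and WT overlapped.

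The effects on Pmaip1 differed as well (0.82, adjusted p = 0.0284), with 2 of 2 shTet2 libraries below all 5 control lymphoma libraries and overlapping KO and WT levels.

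Pmaip1 in control lymphoma replicate 2 (42.7 CPM, from 117 counts) stood apart from the other 4 control lymphoma libraries, at 29.5 to 31.0 CPM. This library had the smallest effective size of the 14. In all, 20 sets of values were examined for such a library, and chance flags about 1 in 20. Without it, the Pmaip1 log2 fold change for shTet2 over control was -0.64 (adjusted p = 0.128).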

How the results depend on the processing

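For KO against WT, 0 of the 10 genes were called under every alternative, leaving out libraries included (lowest adjusted p there 0.0816). The count over all genes, 883, was 570 with the replicate block, 1365 with no filter, 4 (566 at an unadjusted p under 0.05) with the Y-linked covariate, and 607 to 944 when a library was left out. Its split of 261 higher and 622 lower was 274 and 388 in 1 model of all libraries. For shTet2 against control, the count of 330 (235 higher, 95 lower) was 4 with the replicate block, 593 (352 higher, 241 lower) with DESeq2, 782 with no filter, 840 in 1 model, and 100 to 2481 when a library was left out: 2481 without shTet2 replicate 1, 130 without shTet2 replicate 2, and 127, 143, 100 and 189 without control replicates 1 to 4. For the difference between effects, 771 was 256 with the replicate block, 1198 with DESeq2 and 283 to 2001 when a library was left out: 2001 and 283 without shTet2 replicates 1 and 2, 499 without KO replicate 5, 455 without WT replicate 3 and 510 without control replicate 3. For control lymphoma against WT, 12456 stayed between 11710 and 14268 in all settings. Median-of-ratios scaling put the median over all genes there at 0.11, against -0.03 with TMM, and Bcl2l11 at 0.047 (0.049 in DESeq2). Replicate numbers did not pair the libraries (r of same-numbered deviations -0.039 to 0.029), so the replicate block is a check only. Values changed sign as follows, most of them near 0 in the main fit. Not near 0 there were Bax for shTet2 over control (0.53) and, in the difference, Bax (-0.48) and Bbc3 (-0.46). In KO against WT, the replicate block gave Mcl1 0.006 and Bax -0.11, 1 model gave Mcl1 0.014 and Fas 0.03, and the Y-linked covariate gave Bax -0.01, Pmaip1 -0.069, Bbc3 -0.55 and Fas 0.06. In the difference, the block gave Bak1 -0.12 and Bcl2l11 -0.017. Leaving out a library gave, in KO against WT, Mcl1 -0.089 to 0.023, Bax -0.023 to 0.11, Bbc3 -0.13 to 0.24 and Fas -0.078 to 0.027; in shTet2 against control, Bax -0.002 to 0.94 and Bak1 -0.078 to 0.29; and in the difference, Bcl2 -0.27 to 0.47, Bax -0.89 to 0.086, Bak1 -0.14 to 0.27, Bcl2l11 -0.057 to 0.10 and Bbc3 -0.83 to 0.028. The cause of these changes was not tested. Depth limits Bbc3, Bcl2l1 and Fas in lymphoma libraries most, where single libraries held 7, 9 and 16 counts.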
